A study of Schizosaccharomyces pombe with 6 samples.

Results

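Protein-coding genes and pseudogenes next to the left end of chromosome I and next to both ends of chromosome II were examined in fission yeast (Schizosaccharomyces pombe) without Spx1. The set holds the IDs that start with SPAC212, SPAC977, SPBC1348, SPBPB2B2 or SPBCPT2R1 and whose common names do not start with *pfl*, *ght*, *mug* or *meu*, which gave 68 of 6986 IDs in the count table, 58 coding genes and 10 pseudogenes. The rule left out *pfl6* and *ght7*, which carry these prefixes. In the order of the RefSeq annotation (build ASM294v3), SPAC212 and SPAC977 supply 29 of the outermost 30 coding genes and pseudogenes at the left end of chromosome I. The 13 SPBC1348 genes are the outermost at the left end of chromosome II, and the 9 SPBCPT2R1 and 17 SPBPB2B2 genes are the outermost 26 at its right end.

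Poly(A)+ RNA was sequenced from 3 cultures of an h+ *spx1*Δ::kanMX strain (laboratory number BS53) and from 3 cultures of a wild-type h+ strain (AGP73), both in vegetative log phase at 30°C in YES, a rich yeast extract medium. Spx1 is a protein with an SPX domain, which binds inositol pyrophosphates, and a RING finger, and the study asked how its loss alters the transcriptome. The wild-type cultures were grown alongside the mutant ones and sequenced in the same run, and each genotype is a single strain, so any other difference between these strains cannot be told apart from the deletion. Read totals were 20929960 to 24696086 in *spx1*Δ and 11539278 to 15282140 in wild-type libraries, so depth goes with strain. Reads of *spx1* itself (SPAC6B12.07c) gave normalized counts of 2163, 2185 and 2062 in *spx1*Δ and 5436, 5290 and 5153 in wild-type cells, a log2 fold change of -1.31 (adjusted p = 1.07e-04, edgeR). The paper describes a deletion that spans the *spx1* coding sequence, and counts per gene do not show where within the annotated gene the remaining reads lie. The *spx1*Δ libraries were less alike than the wild-type ones: replicate 1 departed from replicates 2 and 3 by a chi-square per degree of freedom of 174.8 and 103.9, against 13.63 between replicates 2 and 3 and 5.572 to 7.93 among wild-type replicates.

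Subtelomeres are the chromosome segments just inside the telomere repeats. In fission yeast they carry heterochromatin, histone H3 methylated by Clr4 and bound by Swi6, which is built from the telomere-binding shelterin complex and from RNA interference at repeats, and which keeps the outermost genes at a low level in growing cells. Subtelomeres also exchange sequence with each other, so that a gene near one end often has a nearly identical copy near another.

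How far a copy can be told from another sets what its count means. Of the 51-base words in each gene, 51 bases being the length of the reads, the share found a single time in the nuclear genome was under 50% in 49 of the 68 genes (72.1%), against 110 of 5145 coding genes and pseudogenes genome-wide (2.14%). No word was unique in 21 of the 68, and every word was unique in 18. The RecQ helicase genes *tlh1*, outermost at the left end of chromosome I, and *tlh2*, outermost at the right end of chromosome II, differed at 1 of 5662 coding bases compared. Their shared stretch is shown around that base, with the differing base in capitals, at positions 273 to 333 of the coding sequence (RefSeq, ASM294v3, coding strand):
tlh1: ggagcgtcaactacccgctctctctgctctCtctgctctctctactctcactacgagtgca
tlh2: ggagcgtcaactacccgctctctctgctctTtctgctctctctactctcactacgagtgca

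The 5Tm genes code for predicted membrane proteins and lie at subtelomeres. The coding sequence of *ftm7*, near the right end of chromosome II, differed from that of *ftm3*, near the right end of chromosome I and outside the set, at 1 of 441 bases. Positions 164 to 224 are shown because *ftm7* was among the genes that rose:
ftm7: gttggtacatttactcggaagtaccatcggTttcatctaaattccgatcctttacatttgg
ftm3: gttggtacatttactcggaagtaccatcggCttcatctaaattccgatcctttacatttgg

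Likewise *ftm6*, near the left end of chromosome II, differed from *ftm2*, near the left end of chromosome I, at 1 of 441 bases, next to the stop codon. Positions 407 to 441 are given:
ftm6: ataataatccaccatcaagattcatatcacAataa
ftm2: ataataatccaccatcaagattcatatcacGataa

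SPAC212.03, a short hypothetical gene near the left end of chromosome I, differed at 1 of 390 bases from SPBC1348.15, the outermost gene at the left end of chromosome II. Positions 167 to 227 are given:
SPAC212.03: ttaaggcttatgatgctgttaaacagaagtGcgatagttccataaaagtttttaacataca
SPBC1348.15: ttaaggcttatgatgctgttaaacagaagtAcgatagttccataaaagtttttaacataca

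How reads that fit several copies were counted was not stated in the sources at hand. Reads were nevertheless assigned to 15 of the 21 genes without a unique word, so a count for such a gene may hold reads of its copies, and the copy that was transcribed cannot be told from the count alone. The build used here for words and gene order is later than that of the count table, and the strains' own subtelomeres may differ from both.

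**Figure D1:**
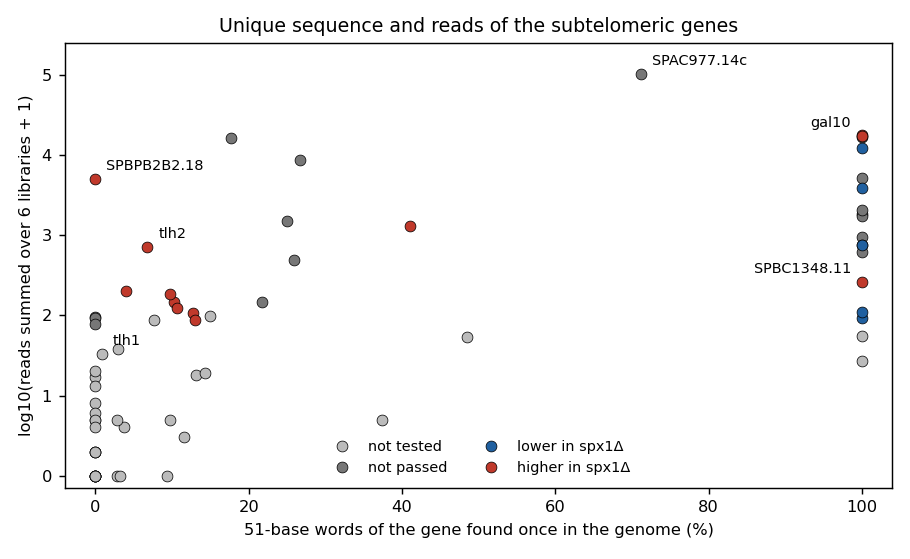
For each of the 68 genes, the share of its 51-base words found once in the genome (x axis, %) is plotted against log10 of its reads summed over the 6 libraries plus 1 (y axis), with colour giving the result of the test. The 5 genes lower in *spx1*Δ lie at 100%, and 9 of the 12 higher lie under 50%. Of these 9, 5 had enough reads for the test in *spx1*Δ cells only, and 2 of the 5 lower in wild-type cells only.

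Of the 68 genes, 34 had enough reads to be tested. At an adjusted p of at most 0.05 (edgeR), 12 of these rose in *spx1*Δ cells (35.3%), where 27.6% of all IDs tested and 21.2% of the coding genes and pseudogenes tested did so. A further 5 fell (14.7%), where 25.4% of all IDs and 30.2% of the coding genes and pseudogenes did so, and 17 did not pass. Scaled and fitted on coding genes and pseudogenes only, 25.9% of these were higher and 23.9% lower, with 13 and 5 in the set. The median log2 fold change was 0.23 in these genes, -0.01 over all 6127 IDs tested and -0.08 over the 5004 coding genes and pseudogenes. The filter on low counts bears on these numbers: 6 genes reached it only in *spx1*Δ cells and all 6 were called higher, 4 reached it only in wild-type cells and 2 of them were called lower, and among the 23 that reached it in both strains 6 were higher, 3 lower and 14 did not pass. Among the 17 tested genes with at least 50% unique words, 3 were higher and 5 lower, with a median of -0.06. Among the 17 with less, 9 were higher and 0 lower, with a median of 0.84. Of these 9, 5 reached the filter in *spx1*Δ cells only, as did 1 of the 3 higher genes with at least 50%. The 2 lower genes that reached it in wild-type cells only both had at least 50%.

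By prefix, 2 of 5 tested SPAC212 genes were higher and 0 lower, and 2 of 13 SPAC977 genes were higher and 1 lower. For SPBC1348, 2 of 3 tested genes were higher and 0 lower, for SPBCPT2R1 both tested genes were higher, and for SPBPB2B2 4 of 11 were higher and 4 lower. Of the higher genes, both of SPBC1348 and 1 of each other prefix reached the count filter in *spx1*Δ cells only. Of the 4 lower SPBPB2B2 genes, 2 reached it in wild-type cells only. Such genes were tested only because they were high in that strain. Against the 27.6% and 25.4% of all IDs tested, this is 15.4% higher and 7.69% lower for SPAC977 and 36.4% in each direction for SPBPB2B2, and the other prefixes hold too few tested genes for a share. Leaving out *spx1*Δ replicate 1 gave 18 higher and 9 lower in the set, and 36.8% higher and 38.5% lower of all IDs tested. Leaving out any other single library gave 5 to 8 higher and 2 or 3 lower in the set, and up to 21.6% higher and up to 17.5% lower of all IDs. With every library thinned to the smallest total, an alternative chosen after seeing the data, 9 were higher and 4 lower, against 26.7% and 24.7% of all IDs.

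**Figure D2:**
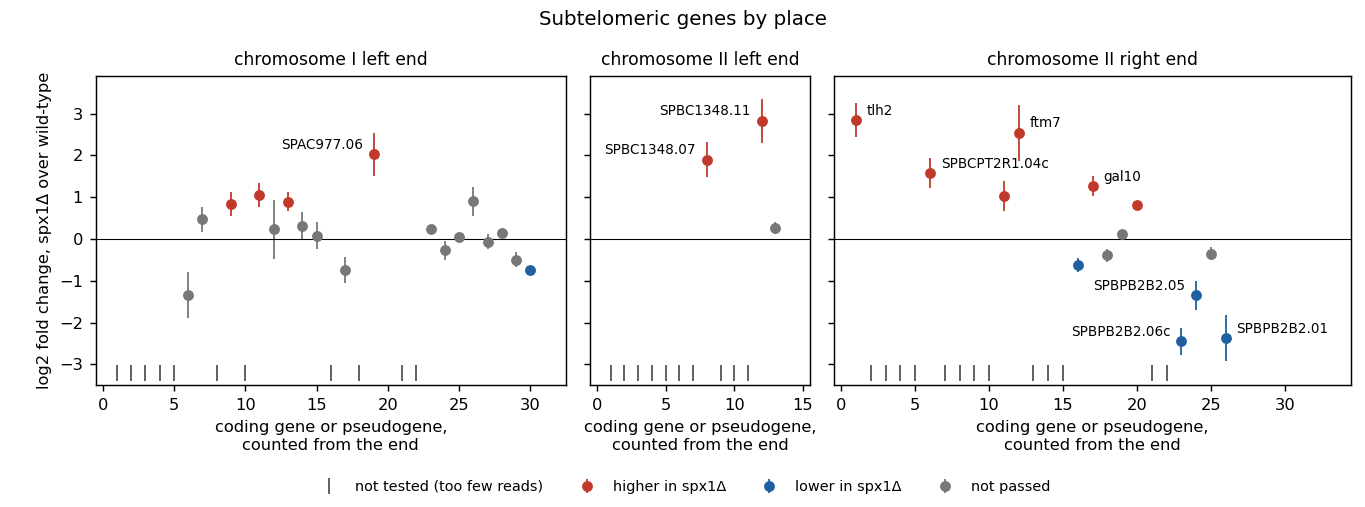
The log2 fold change of *spx1*Δ over wild-type cells (y axis, bars 1 standard error) is plotted against the place of each gene counted from the chromosome end (x axis), for the left end of chromosome I, the left end of chromosome II and the right end of chromosome II. Ticks at the bottom mark the 34 genes with too few reads to test. At the right end of chromosome II the genes called higher reach from *tlh2* at place 1 to *pan5* at place 20, and those called lower stand at places 16 to 26.

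Some markers of other cell states differed between strains as well. Of 9 mating and meiosis genes found, 8 were tested, 4 were higher and 1 lower, where 21.2% and 30.2% of the coding genes and pseudogenes tested were, and none of the 9 was at 0 in all libraries. Their summed normalized count was 7892 to 12012 in *spx1*Δ and 7101 to 7129 in wild-type libraries. The gene for the pheromone P-factor, *map2*, had 901.0, 4713 and 3097 normalized counts in *spx1*Δ replicates 1, 2 and 3, against 89.4, 89.7 and 90.02 in wild-type replicates. *mei3*, the inducer of meiosis, had 94.8, 499.6 and 341.1 in *spx1*Δ replicates and 9.67, 9.78 and 10 in wild-type replicates. Both had the largest log2 fold changes of the 8 tested. Of the other 6, *mei4* and *crs1* rose by 1.76 and 0.52 on the log2 scale (adjusted p = 0.00105 and 0.0328, edgeR), *rec8* fell by 0.65 (adjusted p = 0.0373), and *ste11*, *spo5* and *ssm4* did not pass, at log2 fold changes of -0.08, 0.25 and 0.52. The part of such cells in the results on subtelomeric genes was not tested, and in a whole culture a few cells with much RNA and many cells with little cannot be told apart.

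The RecQ helicase gene *tlh2* showed the largest log2 fold change among the genes tested here. Its transcript is among those that heterochromatin keeps low, and its coding region holds sequence related to the centromeric repeats from which RNA interference starts heterochromatin. Its normalized counts were 204, 128 and 182 in *spx1*Δ replicates 1, 2 and 3, against 16.9, 13.0 and 40.0 in wild-type replicates. Every *spx1*Δ library lay above every wild-type library. The means were 171.5 ± 39.2 in *spx1*Δ and 23.3 ± 14.6 in wild-type cells (SD, n = 3 each), 28.5 against 3.88 per kb of exon, and the log2 fold change was 2.85 (standard error 0.41, adjusted p = 0.00435, edgeR). The call held without any single library and under the other fits.

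Its copy *tlh1* did not have enough reads to be tested, with 27 reads in the *spx1*Δ libraries together and 5 in the wild-type ones. Scaled to library size this is a ratio of 3.22, with a 95% counting interval of 1.22 to 10.7 that leaves out the spread between cultures. In the fit without a filter on low counts it did not pass (adjusted p = 0.137, edgeR). Of the words of *tlh1*, 99.1% also occur in *tlh2*, and their sum, which does not depend on how reads were split between them, was 215, 132 and 189 in *spx1*Δ replicates and 18.1, 13.0 and 45.0 in wild-type replicates. A truncated helicase fragment, SPAC212.06c, with 27.6 ± 4.08 normalized counts in *spx1*Δ and 20.2 ± 6.46 in wild-type cells (SD, n = 3 each), did not pass (log2 fold change 0.47, adjusted p = 0.218, edgeR).

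The DUF999 genes form a family known only from fission yeast, and their function is not established. Of the 9 in the set, 5 were tested, 4 were higher and 0 lower, where 21.2% and 30.2% of the coding genes and pseudogenes tested were, and 3 of these 4 reached the count filter in *spx1*Δ cells only. Summed over the 9 genes, which makes the sum less open to reads moving between copies, the normalized count was 279, 474 and 419 in *spx1*Δ replicates and 176, 189 and 211 in wild-type replicates. Every *spx1*Δ sum exceeded every wild-type sum, and the ratio of means was 2.03. These sums hold only the genes of the set, whose labels skip family number 4, so they need not give the level of the whole family. A single gene, SPAC212.04c, made up most of these sums. It had 169, 338 and 282 normalized counts in *spx1*Δ and 123, 153 and 164 in wild-type replicates, so that *spx1*Δ replicate 1 stood just above the wild-type range. Its log2 fold change was 0.84 (standard error 0.28, adjusted p = 0.0404, edgeR), and the call was lost without any single library other than *spx1*Δ replicate 1, and with limma-voom (adjusted p = 0.0842).

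Without SPAC212.04c the DUF999 genes of the set summed to 110, 136 and 137 in *spx1*Δ and 53.2, 35.9 and 47.5 in wild-type replicates. SPAC977.06 had 20, 34.1 and 50.2 normalized counts in *spx1*Δ replicates, against 9.67, 3.26 and 11.3 in wild-type replicates (log2 fold change 2.03, standard error 0.51, adjusted p = 0.0182, edgeR). SPBC1348.07 had 17.0, 32.4 and 36.6 in *spx1*Δ replicates, against 8.46, 4.89 and 8.75 in wild-type replicates (log2 fold change 1.90, standard error 0.42, adjusted p = 0.0124, edgeR). Both were lowest in replicate 1 of the *spx1*Δ libraries, still above the wild-type range.

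SPBCPT2R1.04c, at place 6 from the right end of chromosome II, had 34.8, 55.2 and 34.0 normalized counts in *spx1*Δ replicates, against 10.9, 9.78 and 20 in wild-type replicates (log2 fold change 1.58, standard error 0.36, adjusted p = 0.0141, edgeR). Its groups did not overlap. The calls of SPAC977.06 and SPBCPT2R1.04c were lost in 4 and 2 of the 6 fits without a single library, with adjusted p of up to 0.0615 and 0.0625, while that of SPBC1348.07 held in these 6, where its largest adjusted p was 0.05. SPAC977.06 had too few reads to test in the thinned libraries. In the 5 DUF999 genes tested, 0% to 41.0% of the words were unique, and 93.3% of those of SPAC212.01c, which did not pass (log2 fold change 0.23, adjusted p = 0.786), also occur in SPBCPT2R1.04c.

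Of the 6 genes of the set annotated to the 5Tm family, 3 were tested, 2 were higher and 0 lower, where 21.2% and 30.2% of the coding genes and pseudogenes tested were. Of these 2, *ftm7* reached the count filter in *spx1*Δ cells only. *ftm7* had 14.1, 23.5 and 26.4 normalized counts in *spx1*Δ replicates, against 2.42, 0 and 7.5 in wild-type replicates (log2 fold change 2.54, standard error 0.67, adjusted p = 0.0212, edgeR). With 79 reads in *spx1*Δ and 8 in wild-type libraries, it rested on few wild-type reads, and without wild-type replicate 1 or 2 or *spx1*Δ replicate 3 the adjusted p was 0.0874, 0.0511 and 0.0732. In the thinned libraries it had too few reads to test. Its near-identical copy *ftm3* had 0 reads in *spx1*Δ and 9 in wild-type libraries, a change in the opposite direction that was too small in number to test. Genes with the same ID prefix as *ftm3* fell too. SPAC750.01 had 473 reads in *spx1*Δ and 13738 in wild-type libraries, and *ftm4* had 2 and 303. SPAC750.02c and SPAC750.07c had 0 reads in either strain. How far such copies bear on the counts of genes in the set was not tested.

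*ftm1* had 39.2, 43.0 and 40.0 normalized counts in *spx1*Δ and 25.4, 24.5 and 16.3 in wild-type replicates (log2 fold change 0.89, standard error 0.23, adjusted p = 0.0204, edgeR). The groups did not overlap, but leaving out any library other than *spx1*Δ replicate 1 raised the adjusted p to between 0.0556 and 0.0718. Of the words of *ftm1*, 4.0% were unique, and 92.0% also occur in *ftm5*, near the left end of chromosome II. *ftm2*, with the most reads of the family, had 150, 354 and 282 in *spx1*Δ and 197, 259 and 285 in wild-type replicates. Its groups overlapped and it did not pass (log2 fold change 0.08, adjusted p = 0.839).

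*ftm6*, whose coding sequence differs from that of *ftm2* at a single base, was not tested. It had 84 reads in *spx1*Δ and 2 in wild-type libraries, 8.88, 34.9 and 24.7 normalized counts against 0, 0 and 2.5, a scaled ratio of 25.0 with a 95% counting interval of 6.72 to 210. All 6 genes of the family in the set summed to 215, 468 and 379 in *spx1*Δ replicates and to 228, 289 and 313 in wild-type replicates. These sums overlapped, with a ratio of means of 1.28. The 5 genes other than *ftm2* summed to 65.1, 114 and 97.8 in *spx1*Δ replicates and to 31.4, 29.3 and 27.5 in wild-type replicates. Of the words of *ftm6*, 65.6% also occur in *ftm2*, so the sum without *ftm2* depends on how reads were split between them. Both sums leave out *ftm3* and *ftm4*, near the right end of chromosome I. *ftm4* went the other way, with 1.48, 0 and 0 in *spx1*Δ and 119.6, 185.9 and 112.5 in wild-type replicates (log2 fold change -7.73, adjusted p = 0.00124, edgeR). Neither sum is therefore the level of the whole family.

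**Figure D3:**
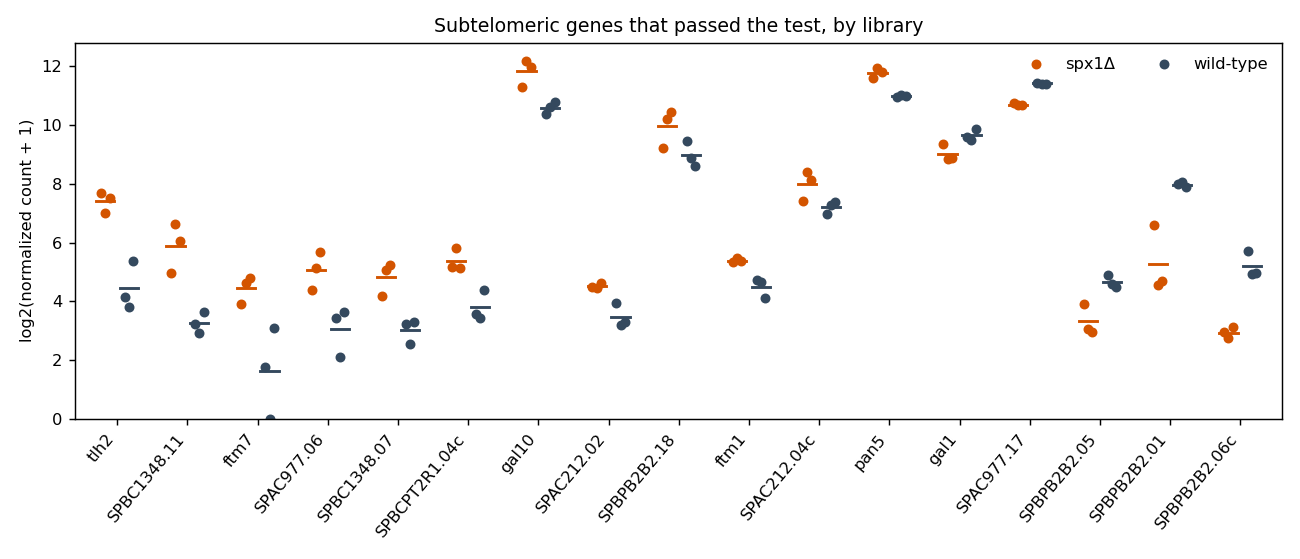
Log2 of the normalized count plus 1 (y axis) is shown in each library for the 17 genes that passed the test, ordered from the largest rise to the largest fall. Orange points are the 3 *spx1*Δ libraries and dark points, to their right, the 3 wild-type libraries, and bars mark the means of the plotted values. The strains' points overlap for SPBPB2B2.18, where *spx1*Δ replicate 1 lies within the wild-type range.

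A pair of genes for conserved fungal plasma membrane proteins lies among these families. SPBPB2B2.18, near the right end of chromosome II, had 594, 1171 and 1395 normalized counts in *spx1*Δ and 695, 465 and 390 in wild-type replicates (log2 fold change 1.03, standard error 0.35, adjusted p = 0.0468, edgeR). Here *spx1*Δ replicate 1 fell within the wild-type range, and the call was lost with limma-voom (adjusted p = 0.0978), in the thinned libraries (0.0512), with a replicate block (0.0984) and in 5 of the 6 fits that left out a library. SPAC977.18, near the left end of chromosome I, had 1634, 3849 and 3397 in *spx1*Δ and 1774, 2687 and 2668 in wild-type replicates and did not pass (log2 fold change 0.32, adjusted p = 0.43). None of the words of SPBPB2B2.18 and 17.7% of those of SPAC977.18 were unique, and 45.3% of the words of SPBPB2B2.18 occur in SPAC977.18.

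The call for SPAC212.02, a fission yeast specific protein of unknown role, rested on 83 reads in *spx1*Δ and 24 in wild-type libraries. Its normalized counts were 21.5, 21.1 and 23.8 in *spx1*Δ and 14.5, 8.15 and 8.75 in wild-type replicates, without overlap (log2 fold change 1.05, standard error 0.29, adjusted p = 0.024, edgeR, and 0.0829 with DESeq2), and 4 of the 6 fits without a single library lost the call. Of the words of SPAC212.02, 12.7% were unique, and 85.0% also occur in SPBCPT2R1.02. The pseudogene SPBC1348.11, a remnant of a membrane transporter gene that shares no 51-base word with another place, had 30.4, 97.3 and 64.7 in *spx1*Δ replicates and 8.46, 6.52 and 11.3 in wild-type replicates. Its *spx1*Δ libraries were all above the wild-type ones, with replicate 1 the lowest of them, and the gene, with 2.83 as its log2 fold change (standard error 0.53, adjusted p = 0.00807, edgeR), kept its call without any single library. SPAC212.02 and SPBC1348.11 each reached the count filter in *spx1*Δ cells only, a route by which all 6 genes were called higher.

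The galactose genes lie at places 16, 17 and 19 from the right end of chromosome II and code for consecutive enzymes of galactose breakdown. Their words were all unique, so no copy elsewhere shares their reads. They did not move together: *gal10* rose, *gal1* fell and *gal7* did not pass. *gal10*, which codes for the epimerase that interconverts UDP-glucose and UDP-galactose, had 2511, 4687 and 4072 normalized counts in *spx1*Δ replicates, against 1342.5, 1567 and 1748 in wild-type replicates. Every *spx1*Δ library exceeded every wild-type one, replicate 1 least. The means were 3757 ± 1122 in *spx1*Δ and 1552 ± 203 in wild-type cells (SD, n = 3 each), and the log2 fold change was 1.27 (standard error 0.23, adjusted p = 0.00756, edgeR), called in each of the fits.

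*gal1*, the galactokinase gene, had 656, 457 and 468 normalized counts in *spx1*Δ replicates and 779, 716 and 926 in wild-type replicates. The groups did not overlap, and *spx1*Δ replicate 1 lay nearest to the wild-type libraries. Its log2 fold change was -0.62 (standard error 0.17, adjusted p = 0.0254, edgeR), and 5 of the 6 fits that left out a library lost the call, at adjusted p of 0.0514 to 0.0926. *gal7*, the uridylyltransferase gene, had 313, 388 and 360 in *spx1*Δ and 321, 329 and 333 in wild-type replicates, which overlapped (log2 fold change 0.11, standard error 0.11, adjusted p = 0.43, edgeR).

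*gal10* and *gal1* point away from each other, with 762 bases between their annotated transcript starts. The transcript of *tgd1*, a predicted nucleotide-sugar dehydratase gene on the other strand, covers 93.7% of the *gal10* transcript. *tgd1* had 102, 81.1 and 96.1 normalized counts in *spx1*Δ and 111, 122 and 133 in wild-type replicates and did not pass (log2 fold change -0.39, adjusted p = 0.0822). Per kb of exon *tgd1* was at 28.0 in *spx1*Δ and 36.6 in wild-type cells, *gal10* at 1069 and 442. The library kit marks strand, but which strand setting the counting used was not stated in the sources at hand. The only antisense RNA named after a gene of the set, *gal1-antisense-1*, had 121.4, 178.4 and 165.0 in *spx1*Δ and 126.9, 136.9 and 166.3 in wild-type replicates (log2 fold change 0.11, adjusted p = 0.653).

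**Figure D4:**
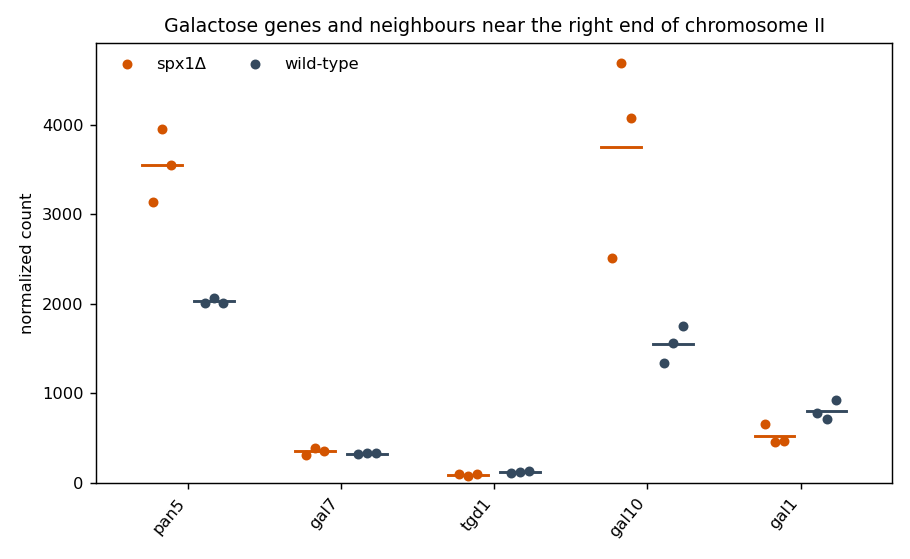
Normalized counts (y axis, linear) of the 5 neighbours *pan5*, *gal7*, *tgd1*, *gal10* and *gal1*, in their order toward the end of the chromosome, with the 3 *spx1*Δ libraries in orange left of the 3 wild-type libraries and bars at the means. *pan5* and *gal10* lie above the wild-type libraries in each *spx1*Δ library, *gal1* lies below them, and *gal7* overlaps.

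Next to *gal7*, *pan5*, a gene for a predicted 2-dehydropantoate 2-reductase of pantothenate synthesis, rose with little spread. It had 3134, 3949 and 3556 normalized counts in *spx1*Δ replicates, against 2007, 2069 and 2012 in wild-type replicates. The means were 3546 ± 408 in *spx1*Δ and 2029 ± 34.4 in wild-type cells (SD, n = 3 each), which gave 0.81 as the log2 fold change (standard error 0.09, adjusted p = 0.00269, edgeR), and the call held in each of the fits.

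The genes that fell furthest were 3 of the innermost 4 at the right end of chromosome II. SPBPB2B2.06c, a predicted extracellular 5'-nucleotidase that would free phosphate from nucleotides, had 6.66, 5.68 and 7.66 normalized counts in *spx1*Δ replicates, against 50.8, 29.3 and 30.0 in wild-type replicates. Each *spx1*Δ library lay far below the wild-type ones, replicate 1 included (log2 fold change -2.45, standard error 0.33, adjusted p = 0.00386, edgeR), on 25 and 84 reads in all. The gene reached the count filter in wild-type cells only.

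SPBPB2B2.01, a predicted amino acid transporter, had 96.2, 22.7 and 24.7 in *spx1*Δ replicates, against 251, 264 and 235 in wild-type replicates. The groups did not overlap, but *spx1*Δ replicate 1 stood well above replicates 2 and 3. Its log2 fold change was -2.37 (standard error 0.55, adjusted p = 0.0145, edgeR), and 4 of the 6 fits without a single library lost the call, at adjusted p of up to 0.0523.

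SPBPB2B2.05, a glutamine amidotransferase family gene, had 14.1, 7.30 and 6.81 in *spx1*Δ and 29.0, 22.8 and 21.3 in wild-type replicates (log2 fold change -1.35, standard error 0.35, adjusted p = 0.0202, edgeR). The call was lost in 5 of the 6 fits without a single library and in the thinned libraries (adjusted p = 0.0574). SPBPB2B2.05 also reached the count filter in wild-type cells only. *say1*, a predicted sterol deacetylase gene between these, had 113, 127 and 106 in *spx1*Δ and 137, 145 and 159 in wild-type replicates and did not pass (log2 fold change -0.35, adjusted p = 0.0814).

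Near the left end of chromosome I, 1 of the 8 genes from *nhe1* inward passed the test, where 27.6% of all IDs tested were higher and 25.4% lower. SPAC977.17, a predicted water channel of the MIP family and the innermost of the set there, fell with hardly any spread. Its normalized counts were 1703.5, 1625 and 1626 in *spx1*Δ replicates, against 2779, 2711 and 2714 in wild-type replicates. The means were 1651 ± 45.0 in *spx1*Δ and 2735 ± 38.4 in wild-type cells (SD, n = 3 each), and the log2 fold change was -0.73 (standard error 0.05, adjusted p = 0.00104, edgeR), called in each of the fits.

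*nhe1*, also called *sod2*, which codes for the antiporter that exports sodium, had 2598.5, 3114 and 3137 normalized counts in *spx1*Δ replicates, against 2519, 2524 and 2488 in wild-type replicates. The groups did not overlap, yet the test missed the threshold (log2 fold change 0.23, standard error 0.08, adjusted p = 0.0518, edgeR). DESeq2 (adjusted p = 0.0448), library size in place of TMM scaling (0.0424), a fit of coding genes and pseudogenes only (0.0331) and a fit without *spx1*Δ replicate 1 (1.22e-04) called it higher.

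SPAC977.14c, an aldo/keto reductase gene, had the most reads of the set and 61.7% of the wild-type sum of its prefix. Its normalized counts were 21525, 13594 and 15271 in *spx1*Δ and 18262, 16975 and 17238 in wild-type replicates, so that *spx1*Δ replicate 1 was the highest of the 6 and replicates 2 and 3 the lowest. It did not pass (log2 fold change -0.06, standard error 0.17, adjusted p = 0.776), and without *spx1*Δ replicate 1 it was called lower (log2 fold change -0.28, adjusted p = 0.00281). Of its words, 28.8% occur in SPAC750.01 near the right end of chromosome I, which had 127.3, 113.5 and 137.0 normalized counts in *spx1*Δ and 5742, 6313 and 6394 in wild-type replicates.

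*dak2*, which codes for dihydroxyacetone kinase, had 980, 595 and 675 in *spx1*Δ and 1056, 1060 and 1042 in wild-type replicates and missed the threshold (log2 fold change -0.49, adjusted p = 0.0598). It was called lower with DESeq2 (0.0288), with a replicate block (0.0454) and without *spx1*Δ replicate 1 (9.82e-06). The asparaginase gene SPAC977.12 had 1605, 1320 and 1402 in *spx1*Δ and 1449, 1401 and 1347.8 in wild-type replicates, which overlapped (log2 fold change 0.04, adjusted p = 0.681). Of its words, 26.7% were unique, and 73.3% also occur in SPBPB8B6.05c. *fex1*, a fluoride efflux channel gene, the dienelactone hydrolase gene SPAC977.15, the hydrolase pseudogene SPAC977.13c and the transporter fragment SPAC977.04 did not pass, at log2 fold changes of -0.27, 0.14, 0.90 and -0.73. SPAC977.13c was called higher with DESeq2 (adjusted p = 0.0378) and without *spx1*Δ replicate 1 (0.00752), and *fex1* was called lower without that replicate (0.0239). Of the words of *fex1*, 25.9% were unique, and 74.1% also occur in SPBPB8B6.06c. SPAC212.12, identical in all of its words to SPAC750.07c, which had no reads, did not pass either (log2 fold change -1.33, adjusted p = 0.0793). At the left end of chromosome II, the predicted transcription factor gene SPBC1348.12 held 92.0% of the wild-type sum of its prefix. It had 327, 276 and 325 in *spx1*Δ and 260, 222 and 291 in wild-type replicates, which overlapped (log2 fold change 0.26, adjusted p = 0.158).

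The 34 genes that were not tested had at most 97 reads in the 6 libraries together, and 9 of them had none. SPAC212.03 had 92 reads in *spx1*Δ and 5 in wild-type libraries, a scaled ratio of 11 (95% counting interval 4.53 to 34.6), and *spx1*Δ replicate 1 held 6 of the 92. In the fit with no filter, 16 of the 59 genes with a read were higher, where 25.9% of all IDs with a read were, and 4 of the 16 were new: SPAC212.03 (adjusted p = 0.0297), the pseudogene SPAC212.07c (0.0431), *ftm6* (0.0131) and the predicted transporter gene SPBC1348.05 (0.0334, edgeR). SPAC212.07c, whose words were all unique, had 45 reads in *spx1*Δ and 10 in wild-type libraries, a ratio of 2.68 (1.33 to 5.97). The 3 velum formation protein genes had at most 2 reads each, and the malic enzyme and malic acid transport pseudogenes next to *tlh1* had none.

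Summed by prefix, SPBCPT2R1 normalized counts were 241, 186 and 223 in *spx1*Δ and 31.4, 27.7 and 65.0 in wild-type replicates, and SPAC212 counts were 278, 483 and 420 in *spx1*Δ and 196, 267 and 240 in wild-type replicates. SPBC1348 counts summed to 395, 466 and 464 in *spx1*Δ and to 283, 240 and 318 in wild-type replicates. SPBPB2B2 counts summed to 7566, 10936 and 10134 in *spx1*Δ and to 5737, 5732 and 5997 in wild-type replicates, and SPAC977 counts to 30829, 25189 and 26425 in *spx1*Δ and to 28574, 28084 and 28361 in wild-type replicates. The sums of SPAC977 overlapped between strains.

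Genes for the machinery that acts on subtelomeres were given by a fixed list of shelterin, telomerase, histone-modifying and RNA interference genes. Of 41 found and tested, 8 were higher and 16 lower, where 21.2% and 30.2% of the coding genes and pseudogenes tested were. *poz1*, which codes for the shelterin bridge protein, had 2311, 2980 and 3188 normalized counts in *spx1*Δ and 1208, 1324 and 1340 in wild-type replicates (log2 fold change 1.13, adjusted p = 0.00276, edgeR). *clr2*, a subunit gene of the SHREC deacetylase complex, had 667, 325 and 420 in *spx1*Δ and 926, 955 and 933 in wild-type replicates (log2 fold change -0.99, adjusted p = 0.0183, edgeR). *arb1*, an Argonaute-binding protein gene, had 381, 430 and 384 in *spx1*Δ and 747, 768 and 756 in wild-type replicates (log2 fold change -0.93, adjusted p = 0.00184, edgeR). The methyltransferase gene *clr4* did not pass (log2 fold change -0.18, adjusted p = 0.109), and *swi6* fell by 0.24 on the log2 scale (adjusted p = 0.0159). Whether any of these values bears on the subtelomeric genes was not tested.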

How the data were processed

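Count data of 6 RNA-seq libraries, 3 of *spx1*Δ and 3 of wild-type cells, were used. The study describes the replicates of a strain as biological, and p-values measure the spread between these libraries of 1 strain per genotype. The authors mapped 51-base read pairs with HISAT2 2.1.0 to build ASM294v2, handled alignments with SAMtools and used HTSeq 0.10.0 to count reads on exons of each gene, and the deposited counts are whole numbers before scaling. How strand was set, and how reads mapping to several places were treated, was not stated in the sources at hand. Other deposited columns, such as gene type and product per the labels of the table, served as annotation; the fold changes and p-values of the authors' own DESeq2 comparison were not used.

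Counts of 6986 IDs (1 duplicate dropped) were filtered with filterByExpr (minimum count 10), scaled by TMM and fitted for strain with edgeR 4.0.16 (glmQLFit, glmQLFTest; R 4.3.3). Benjamini-Hochberg adjustment ran over 6127 IDs, with a threshold of 0.05; the common biological coefficient of variation was 0.149. Normalized counts are counts divided by the TMM-scaled library size and multiplied by the mean scaled size. The standard error is the absolute log2 fold change over the square root of F. Alternatives used DESeq2 1.42.0, limma 3.58.1 (voom), other scalings, no filter, coding genes only, a replicate block, each library left out, and 2 chosen after seeing the data, thinning and a limit of 50% unique words.

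Words of 51 bases were counted on both strands of the nuclear genome (RefSeq, ASM294v3), in which all 68 genes matched by ID; no coordinates are given because the builds differ. Counting intervals are exact 95% binomial intervals and cover counting error only. The genes and lists were chosen with earlier results of these data known. Values per library are given for, in each prefix, up to 4 genes with the largest change among those called without overlap and with a mean of at least 20, the gene with most reads in each prefix, *gal1*, *gal7*, *gal10*, *nhe1*, *tlh1* and *tlh2*, and for other genes chosen after their values were seen. Of the listed names, *rif2* and *mcp5* were not found.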

Additional observations from a re-analysis of the deposited data

How the results depend on the processing

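The counts of 12 genes higher and 5 lower became 13 and 6 with DESeq2, 10 and 5 with limma-voom, 12 and 5 with RLE scaling, 13 and 5 with library size alone or with coding genes and pseudogenes only, and 16 and 5 with no filter. Of all IDs fitted, 28.7% were higher and 27.4% lower with DESeq2, and 24.1% and 25.0% with limma-voom. These shares were 27.7% and 25.3% with RLE scaling and 29.9% and 22.1% with library size alone. They were 25.9% and 23.9% with coding genes and pseudogenes only, and 25.9% and 23.7% with no filter. Requiring also a 2-fold change and a mean of at least 100 left 3 higher and 1 lower, of 20 tested genes with such a mean. The share over all IDs at these limits was not computed. Keeping only genes with at least 50% unique words left 3 higher and 5 lower of 17 tested, 17.6% and 29.4%. Over the coding genes and pseudogenes tested, 21.2% were higher and 30.2% lower. The median log2 fold change of 0.23 became 0.28 with library size alone, 0.31 with coding genes only, 0.68 with no filter, which adds genes with few reads, 0.14 in thinned libraries and -0.06 over genes with at least 50% unique words. With 1 library left out, 5 to 18 were higher and 2 to 9 lower, and the median was 0.19 to 0.41. Among the machinery genes 4 to 12 were higher and 3 to 18 lower in these fits, and among the cell state markers 3 to 5 higher and 0 to 1 lower. Both lists had their largest counts without *spx1*Δ replicate 1, where 36.8% of all IDs tested were higher and 38.5% lower. Without any other single library, up to 21.6% of all IDs were higher and up to 17.5% lower. Of single genes, SPAC977.14c had a log2 fold change of 0.01 with coding genes only and of 0.07 and 0.01 without *spx1*Δ replicates 2 and 3, in a range of -0.28 to 0.07 with 1 library left out, and *gal1-antisense-1* ranged over 0.00 to 0.25; the cause was not tested. With a replicate block, 11 were higher and 6 lower, against 24.8% and 22.8% of all IDs tested. Same-numbered libraries deviated together at r of 0.117, 0.033 and 0.0537 across genes, so the numbers were not taken to pair the libraries. The planned exclusion of genes with near-identical proteins was not run, because no protein table was used here; unique words took its place. Depth limits the 34 untested genes, with at most 97 reads each, and also called genes with few reads: in thinned libraries 9 were higher and 4 lower, *ftm7* and SPAC977.06 could not be tested, and SPBPB2B2.18 and SPBPB2B2.05 were at adjusted p = 0.0512 and 0.0574.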
